A study of Rattus norvegicus with 20 samples.

Results

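Sustained activation of canonical Wnt signalling by the small molecule CHIR99021 was set against no stimulation in cultured rat neural stem cells. The comparison rests on 6 of the 20 libraries of the series, chosen by their labels. CHIR99021 kept on for 3 d and for 5 d gave 2 libraries, both from optoWnt cells. Unstimulated cells of 3 d and 5 d gave 4 libraries, from optoWnt and wild-type cells at each day. The library of CHIR99021 for 1 d, also from optoWnt cells, was used to trace the changed genes back in time, beside the 2 unstimulated libraries of 0 d.

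The cells are adult neural stem cells from the hippocampus of Fisher 344 rats. They were kept as stem cells in medium with the growth factor FGF-2 and then moved to a basal medium with a little serum, the condition in which stimulation was given. Messenger RNA was sequenced from its 3′ ends. Other libraries of the series were stimulated with the ligand Wnt3a or with light, or had their stimulus withdrawn after 1 d. optoWnt cells carry a transduced light-sensitive construct that switches on Wnt signalling under illumination, and were selected with puromycin. They were exposed to CHIR99021 here, so both CHIR99021 libraries carry the construct and the wild-type baselines do not. The titles of the 3 and 5 d unstimulated libraries also carry the word ON while their inducer is given as none. The sources used here do not say whether light reached them, which for the optoWnt baselines bears on every value below.

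In canonical Wnt signalling, a destruction complex containing the kinase GSK-3 marks β-catenin for degradation. A Wnt ligand at the cell surface halts that complex, and β-catenin then accumulates, enters the nucleus and activates genes together with TCF/LEF factors. CHIR99021 inhibits GSK-3 itself and so acts below the receptors that Wnt3a and the light-sensitive construct engage. GSK-3 also has substrates outside the Wnt pathway. In the adult hippocampus the pathway is known for its part in the proliferation and neuronal differentiation of stem cells.

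Total reads ran from 2062454 to 5935681 over the 6 libraries, and CHIR99021 for 1 d had 5125320. A count of 0 allowed a level of up to 0.521 to 1.47 CPM (reads of a gene as a rate over all reads of its library, scaled by TMM) over the 6, which covers counting error only. The files and the reference used here pair no gene ID with a symbol. Genes are therefore given by Ensembl ID, at most 2 in each direction, with no role, and the labelled cell type could not be checked against its markers. The wild-type 5 d library stood apart from the other 5. Its score on the first principal component of log2 CPM over all 20 libraries, which held 29.4% of the variance, was -79.2, against 40.9 and 39.8 for CHIR99021 at 3 and 5 d and 14.1 to 30.8 for the other 3 baselines. It was also the shallowest of the 6. Of the other libraries used here, wild-type 0 d (-68.1), Wnt3a 5 d ON (-110) and light 3 d ON (-42.7) lay on the same side.

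Sustained CHIR99021 changed the level of 207 genes, 106 higher and 101 lower than in unstimulated cells. The differences were large, with a median log2 fold change of 4.10 among the higher genes and -3.59 among the lower ones, against -0.05 over all 12406 genes tested. The smallest called differences were 2.12 and -2.23, and no smaller one was called with this number of libraries. In bulk RNA, fewer cells of a type and less RNA per cell cannot be told apart. The 207 were 1.67% of the genes tested, with 0.854% called higher and 0.814% called lower (edgeR's quasi-likelihood test, Benjamini-Hochberg adjusted p under 0.05, n = 2 and 4). The lowest adjusted p of the edgeR test was 0.00077. Before adjustment 1429 genes passed 0.05, and chance alone would give 620. The model held day, genotype and inducer as terms, and the libraries of sustained Wnt3a and light were fitted with those compared here. Because all CHIR99021 libraries were optoWnt, the fold changes are in effect measured from the 2 optoWnt baselines, and the wild-type libraries served the day term and the estimate of spread.

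**Figure D1:**
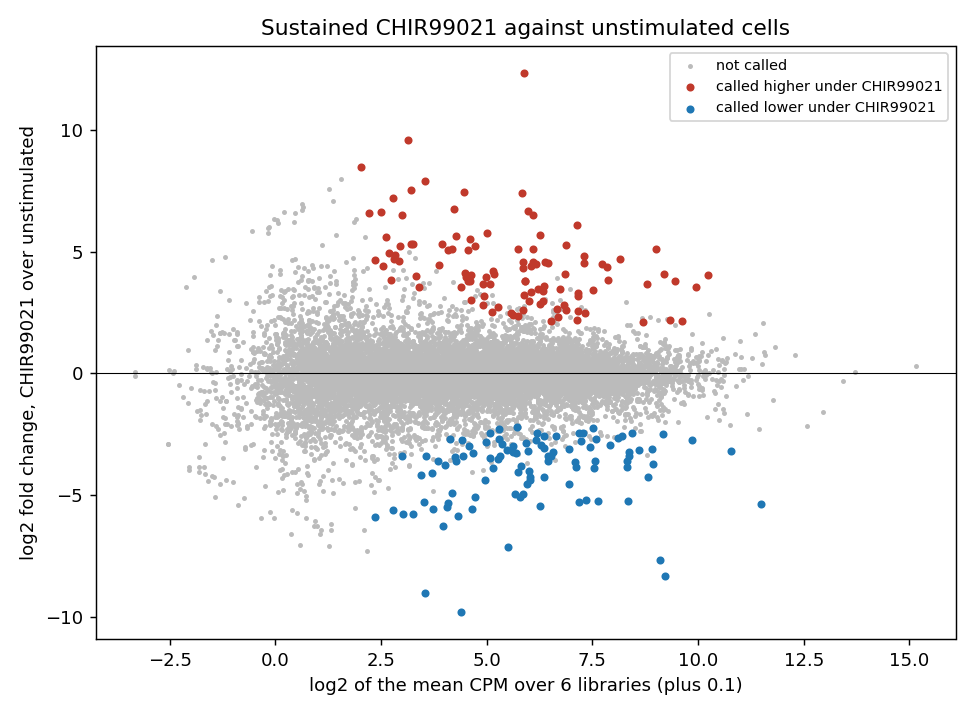
Each point is 1 of 12406 genes, with the log2 of its mean CPM over the 6 libraries (plus 0.1) across and the fitted log2 fold change of sustained CHIR99021 over unstimulated cells upwards. Red points are the 106 genes called higher, blue points the 101 called lower, and grey points were not called. No called gene lies closer to 0 than 2.12 on the vertical axis.

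Among the higher genes, 105 of 106 had both CHIR99021 libraries above all 4 unstimulated ones, where 15.9% of all genes tested did. All 101 lower genes had both CHIR99021 libraries below all 4, where 15.0% of all genes did. The single overlapping gene stood at 791 and 2152 CPM under CHIR99021 and at 943 CPM in the wild-type 5 d baseline, with 51.2 to 164 CPM in the other 3 baselines. The called genes were not limited to rare transcripts. Under CHIR99021, 58 of the higher genes averaged at least 100 CPM and 48 stood between 10 and 100 CPM. Of the lower genes, 45 averaged at least 100 CPM in unstimulated cells, 55 between 10 and 100 CPM, and 1 less than 10 CPM. Few genes were without reads in one arm. Of the higher genes, 2 had no read in any of the 4 unstimulated libraries of 3 and 5 d and 6 had 1 to 3 reads over those 4. Of the lower genes, 2 had no read and 6 had 1 to 3 reads over both CHIR99021 libraries.

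Together the higher genes took 2.62% and 3.07% of all reads in the CHIR99021 libraries of 3 and 5 d, against 0.276% and 0.557% in wild-type and 0.198% and 0.338% in optoWnt baselines of the same days. The lower genes took 0.25% and 0.192% under CHIR99021, against 2.31% and 2.33% in wild-type and 2.35% and 2.75% in optoWnt baselines. The members were called on these libraries, so these shares describe their size and are no further test. Reads come from transcript ends, so CPM needs no correction for transcript length. The most abundant members were a group of 8 higher genes with at least 1000 CPM under CHIR99021. These averaged 1061 to 3324 CPM under CHIR99021 and 66.9 to 401 CPM in unstimulated cells, with log2 fold changes from 2.13 to 5.09 (edgeR adjusted p from 0.0058 to 0.046). At the other end, 3 lower genes averaged at least 1000 CPM without stimulation. They stood at 120 to 223 CPM under CHIR99021 and at 1270 to 4283 CPM in unstimulated cells, with log2 fold changes from -5.37 to -2.73 (edgeR adjusted p from 0.023 to 0.041).

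Among the higher genes, ENSRNOG00000013859 had the highest fitted log2 fold change, a rank that depends on the genotype term and on how 0 counts are fitted. With no genotype term its value was 9.50, against 9.59 for ENSRNOG00000006723. ENSRNOG00000013859 stood at 189 and 161 CPM in the CHIR99021 libraries of 3 and 5 d. The baselines of 3 and 5 d had 0.257 and 0.982 CPM in wild-type and 0 counts in both optoWnt libraries. The arms lay far apart, with 1389 counts under CHIR99021 and 3 in all 4 baselines. With counts and depth pooled within each arm, CHIR99021 was 917 times the baseline, and counting error alone puts the 95% bounds at 313 and 4452. That is not the ratio of the mean levels that follow, in which each library has equal weight. The mean was 175 ± 19.6 CPM (SD, n = 2) under CHIR99021 and 0.31 ± 0.464 CPM (SD, n = 4) without it, and the call held whichever of the 9 fitted libraries was left out (edgeR adjusted p = 0.0037 with all 9). After 1 d of CHIR99021 it had reached 5.39 CPM, from 28 counts, while the 0 d libraries had 1 count in wild-type and 0 in optoWnt cells. It was thus above every unstimulated library after 1 d, at a small part of the level seen at 3 d.

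ENSRNOG00000006723 had the next highest fitted value, a rank that depends on how 0 counts are fitted. It stood at 27.7 CPM in the CHIR99021 library of 3 d and 24.9 CPM in that of 5 d, against 0 counts in all 4 unstimulated libraries of those days. That is at least 137-fold higher, against 3 counts over the 4 baselines together (edgeR adjusted p = 0.019). At 1 d of CHIR99021 it stood at 1.73 CPM, from 9 counts, and at 0 d it had 1 count in wild-type and 0 in optoWnt cells. The call was lost without CHIR99021 3 d (edgeR adjusted p = 0.22) or CHIR99021 5 d (0.087), and DESeq2 did not make it (adjusted p = 0.35).

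Among the lower genes, ENSRNOG00000009660 had the lowest fitted log2 fold change, again a rank that depends on how 0 counts are fitted. It had 0 counts in both CHIR99021 libraries, against 18.2 and 46.1 CPM in wild-type and 21.2 and 40.6 CPM in optoWnt baselines of 3 and 5 d. The level in unstimulated cells was therefore higher at 5 d than at 3 d in both genotypes, and no read was seen under CHIR99021 at either day. It was at least 74.9-fold lower, against 3 counts over both CHIR99021 libraries (edgeR adjusted p = 0.017). At 1 d of CHIR99021 it had 2 counts (0.385 CPM), and both 0 d libraries had 0.

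ENSRNOG00000000775, next by the fitted value, followed the same course. It had 0 counts in both CHIR99021 libraries, against 9.24 and 25.5 CPM in wild-type and 14.1 and 20.3 CPM in optoWnt baselines of 3 and 5 d, at least 41.7-fold lower (edgeR adjusted p = 0.014). It also had 0 counts at 1 d of CHIR99021 and in both 0 d libraries. Both falling IDs thus had no reads at 0 d, had them in all 4 unstimulated libraries of 3 and 5 d, and had at most 2 counts in any of the 3 CHIR99021 libraries of 1, 3 and 5 d. Without CHIR99021 3 d both calls were lost (edgeR adjusted p = 0.16 each), as they were without CHIR99021 5 d (0.096 for ENSRNOG00000009660 and 0.11 for ENSRNOG00000000775). Only bounds are known for these falls. Another 2 lower genes, chosen after their values were seen, had reads in both arms, with means of 2.83 and 3.52 CPM under CHIR99021 against 891 and 816 CPM in unstimulated cells, so the order of the falls is not settled.

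**Figure D2:**
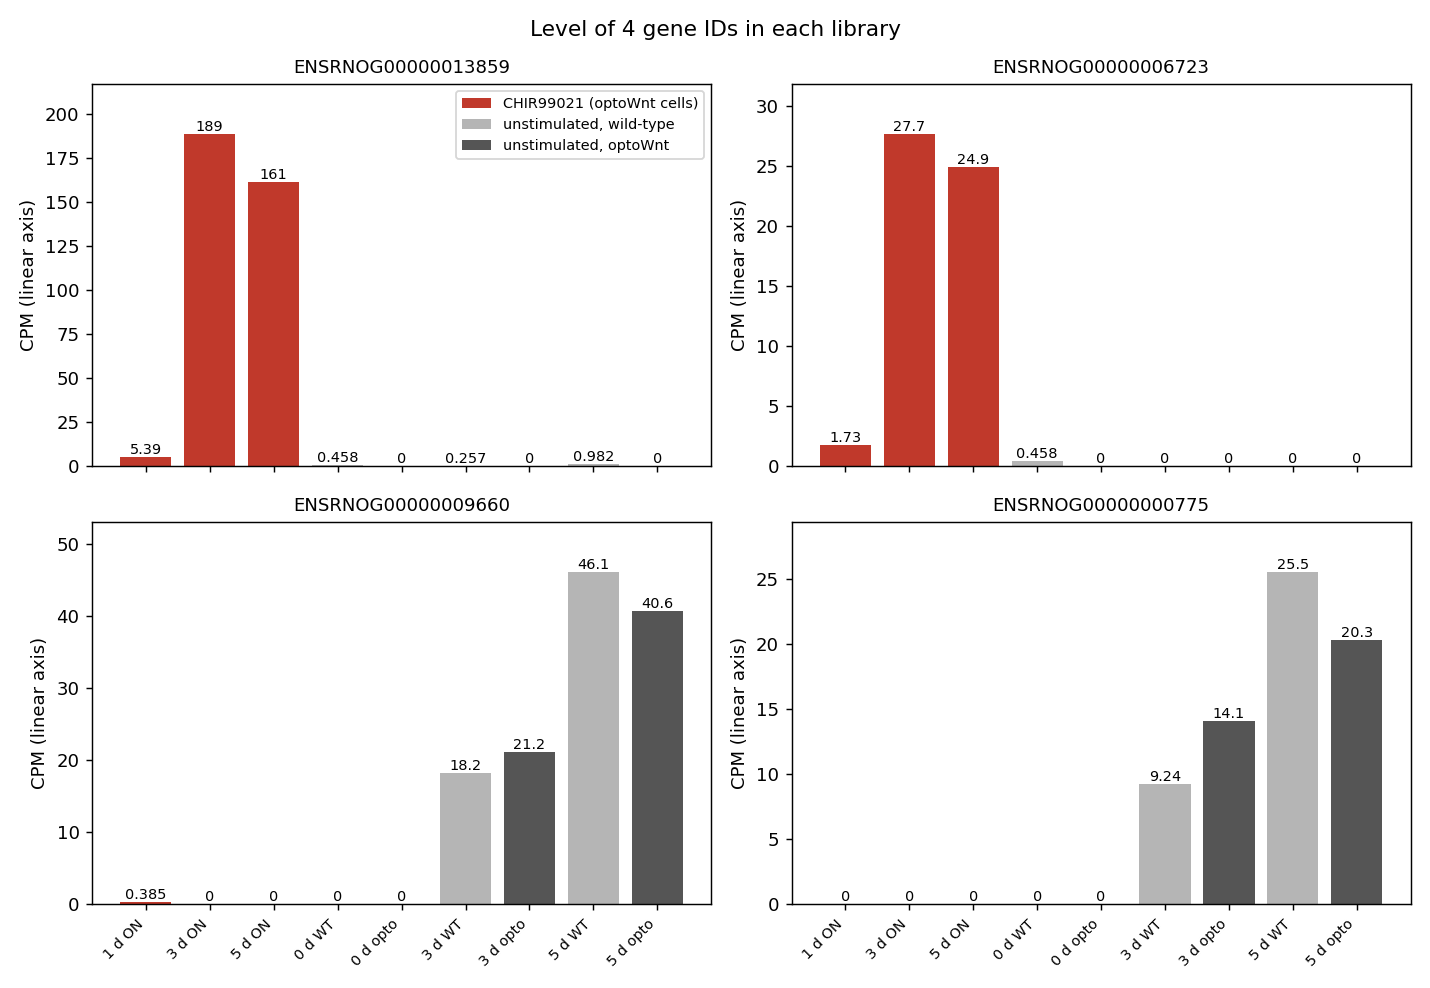
Bars give the CPM of each of 4 gene IDs in single libraries on a linear axis, with CHIR99021 at 1, 3 and 5 d ON in red on the left and unstimulated wild-type (light grey) and optoWnt (dark grey) cells at 0, 3 and 5 d on the right. ENSRNOG00000013859 and ENSRNOG00000006723 are high only at 3 and 5 d of CHIR99021 among these 9 libraries, and ENSRNOG00000009660 and ENSRNOG00000000775 only at 3 and 5 d without it.

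Both days of treatment were also set against single baselines. Matched to the optoWnt baseline of the same day, the higher genes had a median difference in log2 CPM (prior count 2) of 4.17 at 3 d and 3.71 at 5 d, and the lower genes -3.40 and -3.30. Against the wild-type baselines the medians were 3.81 and 2.99 for the higher genes and -2.99 and -3.04 for the lower ones. All 106 higher genes were at least 2-fold higher in each of these 4 pairs. All 101 lower genes were at least 2-fold lower in 3 of the pairs, and 95 of them against wild-type 5 d. Over all genes tested, 3.96% were higher by that much in all 4 pairs and 3.80% were lower by that much. The fit that called the genes held these same 6 libraries, beside those of sustained Wnt3a and light. Such counts were therefore nearly fixed by the call and describe only its size. Within CHIR99021, the median difference of 5 d minus 3 d was 0.23 for the higher and -0.19 for the lower genes, against -0.03 over all genes tested. Levels at 5 d were within 2-fold of those at 3 d for 86 of the higher and 75 of the lower genes, where 84.8% of all genes were. Of the higher genes, 14 were at least 2-fold higher at 5 d than at 3 d and 6 at least 2-fold lower. Of the lower genes, 4 were at least 2-fold higher at 5 d and 22 at least 2-fold lower, where 7.59% of all genes were higher and 7.56% lower by that much. Each day has 1 CHIR99021 library, so these differences between days have no replicate check.

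Many of the higher genes already stood above the unstimulated range after 1 d of CHIR99021. There 55 of 106 stood above all 6 unstimulated libraries of 0, 3 and 5 d, where 10.2% of all genes tested did. Of the 55, 25 did so by at least 2-fold, a count that has no share over all genes to be judged against. A further 50 lay within the unstimulated range and 1 below it, where 6.43% of all genes lay below it. The median difference from unstimulated 3 d cells was 1.58 on the log2 CPM scale at 1 d, 4.0 at 3 d and 4.39 at 5 d of CHIR99021, against 0.00, 0.01 and 0.00 over all genes. Measured from 0 d cells in place of 3 d cells, the value at 1 d was 1.55. For the median higher gene, the log2 difference from unstimulated 3 d cells at 1 d was 42.2% of that at 3 d. The same figure was 50.0% for the lower genes, whose 1 d value turned on the baseline, so it does not by itself measure progress of a response. All 106 higher genes were lower at 1 d than at 3 d, where 50.2% of all genes were. Of them, 65 were in the order 1 d, 3 d, 5 d, where 16.7% of all genes were. The genes were called for being high at 3 and 5 d, which builds much of this order in. The 1 d condition has a single library, no unstimulated library of 1 d was sequenced among those used here, and the baselines of 3 and 5 d are those on which the genes were called, so no test was made.

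The 55 higher genes that were above every unstimulated library at 1 d had a median level of 24.8 CPM at 1 d, 95.1 CPM at 3 d and 97.9 CPM at 5 d of CHIR99021, against 5.12 CPM in unstimulated cells of 3 and 5 d. The other 51 had 22.3, 156 and 156 CPM at the 3 times, against 14.9 CPM in unstimulated cells. The 8 most abundant genes spanned 71.9 to 837 CPM at 1 d.

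The lower genes gave a different picture at 1 d, one that turned on the baseline. Relative to unstimulated 3 d cells their median difference in log2 CPM was -1.59 at 1 d, -3.14 at 3 d and -3.45 at 5 d of CHIR99021. Relative to unstimulated 0 d cells it was 0.14 at 1 d, beside 0.12 over all genes tested, and -1.55 and -1.48 at 3 and 5 d. At 1 d, 73 of 101 stood below all 4 unstimulated libraries of 3 and 5 d, where 16.4% of all genes did. With the 0 d libraries included, 18 stood below all 6, where 6.43% of all genes did. Thus at 1 d of CHIR99021 most of these genes were lower than in unstimulated cells of 3 and 5 d, while against the 0 d cells 45 were above both libraries, 38 below both and 18 between them. Over all genes tested the shares were 39.9% above, 29.1% below and 31.0% between, against 44.6%, 37.6% and 17.8% of the lower genes. A smaller share of the lower genes lay between the 0 d libraries, and a somewhat larger share lay on either side.

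**Figure D3:**
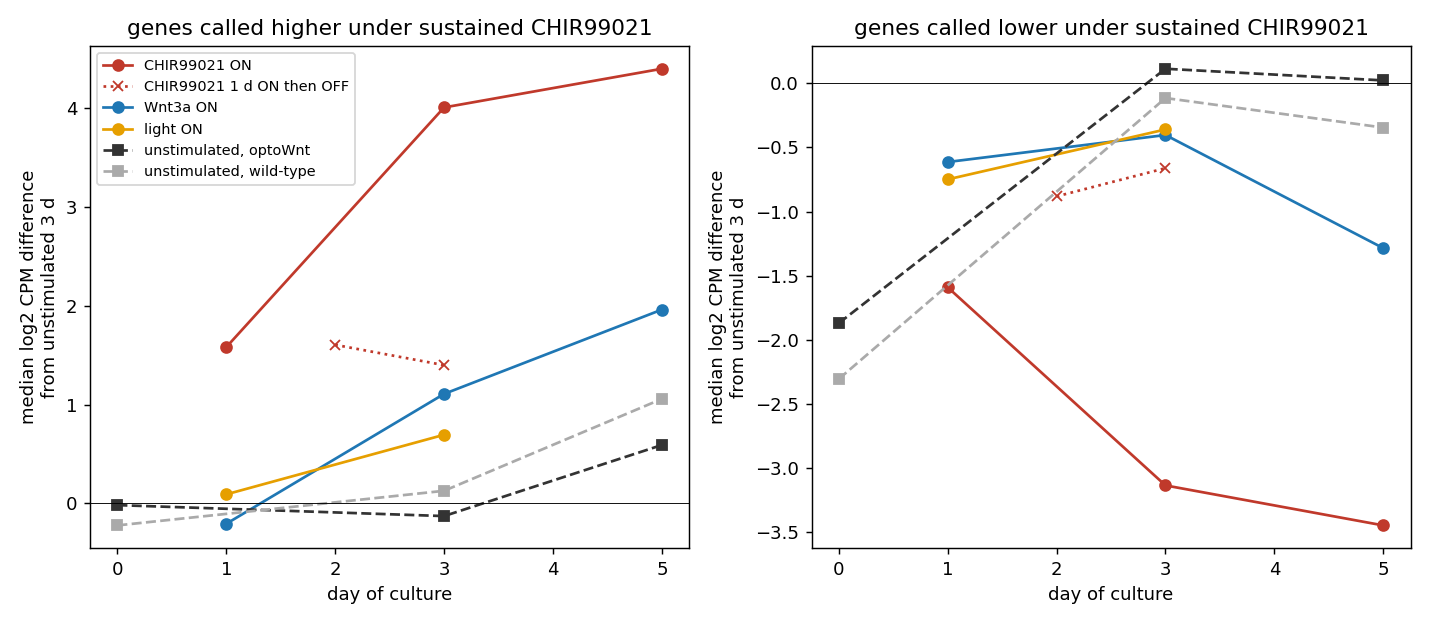
Each point is 1 library, with the day of culture across and the median difference in log2 CPM from unstimulated 3 d cells upwards, over the 106 genes called higher (left) or the 101 called lower (right). Under CHIR99021 the higher genes run through 1.58, 4.0 and 4.39 and the lower genes through -1.59, -3.14 and -3.45 at 1, 3 and 5 d, while the unstimulated lower genes begin at -2.31 (wild-type) and -1.87 (optoWnt) at 0 d.

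The 0 d cells also place the sustained levels. Both CHIR99021 libraries of 3 and 5 d were above both 0 d libraries for 102 of the 106 higher genes, where 33.3% of all genes were. For unstimulated cells of 3 and 5 d, all 4 libraries were above both 0 d libraries for 28 of these genes, where 16.6% of all genes were, and below both for 17, where 14.2% of all genes were. The 17 are thus close to the share of all genes. The median difference in log2 CPM from 0 d was 4.28 under CHIR99021 and 0.35 without stimulation. For the lower genes, both CHIR99021 libraries lay below both 0 d libraries in 66 of 101, where 26.4% of all genes did. They lay above both in 15, where 33.3% of all genes did. In unstimulated cells, all 4 libraries lay above both 0 d libraries in 66 of the 101, where 16.6% of all genes did. All 4 lay below both in 15, where 14.2% of all genes did, a share close to that of all genes. The median difference from 0 d was -1.63 under CHIR99021 and 1.92 without stimulation. The genes were called for being low under CHIR99021 and high without it, so these directions are partly fixed by that choice.

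Of the lower genes, the 66 that lay below both 0 d libraries under CHIR99021 had a median of 7.15 CPM under CHIR99021 and 83.2 CPM in unstimulated cells of 3 and 5 d, with 46.5 CPM at 0 d. The other 35 had 8.25 CPM under CHIR99021 and 107 CPM in unstimulated cells, with 3.29 CPM at 0 d. ENSRNOG00000009660 and ENSRNOG00000000775 are among these 35, and 6 of the lower genes had at most 3 reads in both 0 d libraries together.

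The same genes were read in the cells kept under Wnt3a or light, which share the unstimulated libraries of the CHIR99021 comparison. For the higher genes the median fitted log2 fold change was 4.10 under CHIR99021 (n = 2), 1.60 under Wnt3a (n = 2) and 0.90 under light (n = 1). For the lower genes it was -3.59, -0.89 and -0.72 in the same order. Both Wnt3a libraries were above all 4 baselines for 42 of the 106 higher genes, where 5.59% of all genes were, and below all 4 for 29 of the 101 lower genes, where 3.67% of all genes were. The light library was above all 4 for 33 of the higher genes, where 23.8% of all genes were, and below all 4 for 35 of the lower genes, where 25.1% of all genes were. The genes were called under CHIR99021, so a smaller median under the other inducers is partly built in.

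The difference between sustained CHIR99021 and sustained Wnt3a was tested in the same model, with 2 libraries on each side. It was called for 6 genes, 0.0484% of those tested, and all 6 were among the 207 (edgeR adjusted p from 0.0034 to 0.048). Both tests use the same CHIR99021 libraries, so that overlap is partly built in. With 2 libraries on each side, a gene not called is not shown to be alike under both inducers. Before adjustment 1321 genes passed 0.05. The split was 1 higher and 5 lower, against 9 and 12 with RLE scaling and 12 and 22 with upper-quartile scaling. ENSRNOG00000013859 was the 1 higher gene, with 189 and 161 CPM under CHIR99021 and 2.92 and 6.33 CPM under Wnt3a at 3 and 5 d. Its log2 fold change over Wnt3a was 5.35, with an SE of 0.66 (edgeR adjusted p = 0.048), and 10 of the 20 alternative fits did not call it. The other 5 averaged 2.83 to 18.4 CPM under CHIR99021 and 149 to 395 CPM under Wnt3a, with 181 to 891 CPM in unstimulated cells. Their log2 fold changes over Wnt3a ran from -6.78 to -3.69 (edgeR adjusted p from 0.0034 to 0.048). Without CHIR99021 3 d or CHIR99021 5 d, edgeR called 0 genes, and 1142 and 461 passed 0.05 before adjustment. The other 7 libraries left out in turn gave 2 to 271 calls, with 149 without optoWnt 3 d, 271 without optoWnt 5 d, 250 without Wnt3a 3 d, 18 without Wnt3a 5 d, 2 without wild-type 5 d, and 3 without wild-type 3 d or light 3 d. For the other 3 IDs the difference from Wnt3a was not called, at log2 fold changes of 3.72 (SE 0.86, edgeR adjusted p = 0.16) for ENSRNOG00000006723, -8.18 (SE 1.5, 0.087) for ENSRNOG00000009660 and -6.86 (SE 1.34, 0.099) for ENSRNOG00000000775.

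After 1 d of CHIR99021 followed by withdrawal, the higher genes had a median difference in log2 CPM from unstimulated 3 d cells of 1.60 at 1 d OFF and 1.40 at 2 d OFF, close to the 1.58 of 1 d ON. The lower genes stood at -0.88 and -0.66. Over all genes tested the medians were 0.005 and -0.003. These values are given from 3 d cells only, and at 1 d ON the value of the lower genes turned on the baseline. Each OFF time is 1 library, and that of 2 d OFF had a first component score of -42.9, on the side of wild-type 5 d.

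The number of called genes depended on single libraries. Without CHIR99021 3 d it was 9 and without CHIR99021 5 d it was 45, where the lone CHIR99021 library was assumed to vary like the others. Without wild-type 5 d, the library that stood apart, it was 97, of which 96 were among the 207. Leaving out Wnt3a 3 d or Wnt3a 5 d raised it to 473 and 445, with all 207 among them in each case, and the other 4 libraries gave 144 to 288. The 207 were not all kept there. Of them, 114 were among the 144 called without optoWnt 3 d, 152 among the 163 without wild-type 3 d, 152 among the 288 without optoWnt 5 d and 186 among the 186 without light 3 d. Without optoWnt 3 d the higher genes numbered 47 and the lower ones 97. The direction of all 207 genes was the same in each of these 9 fits. The genes were called on these same libraries, so that direction was nearly fixed by the call.

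**Figure D4:**
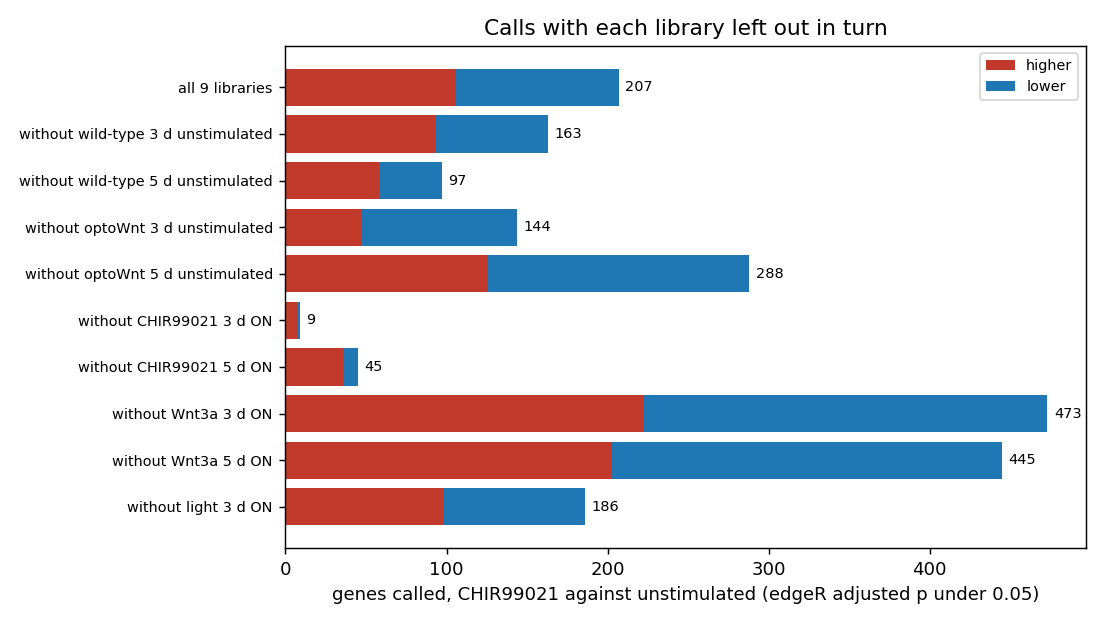
Bars give the number of genes called higher (red) and lower (blue) under sustained CHIR99021 than in unstimulated cells, with all 9 fitted libraries at the top and each library left out in turn below. The counts run from 9 (without CHIR99021 3 d) to 473 (without Wnt3a 3 d), against 207 with all 9.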

How the data were processed

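The authors deposited whole-number counts of reads per gene, not normalized, for 32623 Ensembl gene IDs in 20 wells, from QuantSeq 3′ libraries made with the low-input protocol per the labels. The submitters' processing notes name Bowtie2, Subread, featureCounts and the build Rnor_6.0. The sources used here give no versions, strand setting or treatment of multi-mapping reads, so reads of near-identical or overlapping genes may be misassigned. Wells were tied to libraries through the sample descriptions, and 0 IDs matched the gene table provided. The comparison was tested by quasi-likelihood in edgeR 4.0.16 under R 4.3.3, on 9 libraries, the unstimulated and constantly stimulated ones of 3 and 5 d, with terms for day, genotype and inducer (6 coefficients, 3 residual degrees of freedom). TMM scaling and filterByExpr by inducer arm were used, in which the smallest arm has 1 library, so genes reaching the minimum in a single library were kept. A called gene is one with a Benjamini-Hochberg adjusted p under 0.05. Each standard error is the size of the log2 fold change over the root of its F statistic. The common biological coefficient of variation was 0.449. CPM used full library totals scaled by TMM over 20 libraries. Each combination of genotype, inducer and day has 1 library, and separate cultures are not stated, so p-values measure the spread between these libraries. No pair of libraries within an arm agreed within sampling noise (lowest chi-square per degree of freedom 19.6). The named IDs are the 2 top log2 fold changes per direction among calls averaging 5 CPM or more over the 6 libraries whose arms do not overlap. Gene lists by symbol could not be applied. The comparison, lists and alternatives were chosen with earlier results of these data known. DESeq2 1.42.0 and limma-voom (limma 3.58.1), other scalings, filters, terms and sets of libraries were tried.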

Additional observations from a re-analysis of the deposited data

Results flagged for a closer look

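The share of reads held by the 101 lower genes was 2.75% in the optoWnt 5 d baseline, apart from the other 3 unstimulated libraries at 2.31% to 2.35%, against 0.25% and 0.192% under CHIR99021. A gap of that relative size arises by chance in about 1 in 20 groups of 4. A total of 6 genes differed between sustained CHIR99021 and sustained Wnt3a by the test of that difference (edgeR adjusted p under 0.05), as described above.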

How the results depend on the processing

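All tested members of the 207 kept their direction in each alternative fit, which was nearly fixed because they were called on these same libraries. For CHIR99021 against unstimulated cells, the count of 207 was 616 with DESeq2 (204 of the 207 among them), 639 with no low-count filter, 379 with no genotype term, 100 with no day term, 99 in optoWnt libraries only, 355 in the 6 libraries with day and genotype, 479 in the 6 with day alone, 351 with all 20 libraries and 1512 without wild-type 5 d, Wnt3a 5 d ON and light 3 d ON, where 1 residual degree of freedom remains. With limma-voom, RLE or upper-quartile scaling or a stricter filter it was 162 to 253. Leaving out 1 library gave 9 to 473. For CHIR99021 against Wnt3a, the count of 6 was 395 with DESeq2, 21 with RLE and 34 with upper-quartile scaling, 533 with no low-count filter, 3 with a stricter one, 2 with no day term, 2 in optoWnt libraries only, 27 with all 20 libraries and 425 without the 3 libraries that stood apart. Leaving out 1 library gave 0 to 271. The share called higher moved from 51.2% to 60.6% in optoWnt libraries only, 32.6% without optoWnt 3 d and 77.8% and 80% without CHIR99021 3 d or 5 d. Upper-quartile scaling put the median log2 fold change of all genes over Wnt3a at -0.11. At 1 d of CHIR99021 the lower genes' median was 0.14 from 0 d cells, in place of -1.59 from 3 d cells. The cause of these shifts was not tested. Libraries could not be paired by replicate because the labels carry no replicate numbers. Day and genotype, which they do give, were terms of the model.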
